A study of Mus musculus with 16 samples.

Results

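This account follows 62 DNA repair genes in mouse liver, of 15119 genes in the deposited counts table. They were picked by a rule on symbols that used no measured value, though earlier results of these data were known. The rule took the Fanconi genes Fanca to Fancm, the Rad50 to Rad59, Xrcc, Ercc, Brca, Msh, Mlh and Neil families, Parp symbols beginning with 1, 2 or 3, the ligases Lig1, Lig3 and Lig4, and the kinases Atm, Atr, Chek1 and Chek2. All 62 passed the filter on low counts, which left 14434 genes to be tested. The symbol rule also took in Parp10, Parp11, Parp12, Parp14 and Parp16, enzymes that attach single ADP-ribose units to proteins and that are not classical repair genes, so counts are also given for the 57 genes without them.

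Poly(A) RNA was sequenced from livers of female mice of the wild type (WT) or with a hepatocyte knockout of Arglu1 (LKO). All had aged to 9 months on chow and then either stayed on chow or were moved for 12 weeks to a high-fat diet (HFD, TD. 88137). The 4 groups were WT on chow, LKO on chow, WT on HFD and LKO on HFD, with 4 libraries each. The deleted exons, the driver of the deletion and the strain were not given in the sources used here, and no label ties the libraries to separate animals, so SDs, SEs and p-values measure library-to-library spread, which may be technical.

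Cells mend DNA by several routes. Mismatch repair corrects copying errors, base excision repair removes single damaged bases, nucleotide excision repair cuts out bulky lesions, and double-strand breaks are closed either by end joining or, in dividing cells that hold a sister copy, by homologous recombination. The Fanconi anaemia pathway deals with cross-linked strands, and the kinases ATM and ATR sense breaks and stalled forks and signal to the checkpoint kinases CHK1 and CHK2. Most hepatocytes of an adult liver do not divide, so routes tied to DNA replication are usually sparsely expressed there. ARGLU1 is a transcriptional coregulator that also takes part in RNA splicing.

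Total estimated counts per library ran from 19142612 to 25120565. Arglu1 (chromosome 8, 8665075 to 8690521, minus strand, GRCm38) stood at 39.5 to 45.1 CPM (counts scaled to library size) in the 8 WT libraries and at 12.8 to 16.7 CPM in the 8 LKO libraries, with log2 fold changes of -1.49 on chow (SE 0.09) and -1.44 on HFD (SE 0.09). Of 8 hepatocyte markers listed, 7 were in the table, and they summed to between 62695 and 121399 CPM in every library. On HFD this sum separated the genotypes: no WT library exceeded 68043, whereas every LKO library reached at least 79457. The chow sums overlapped, with a WT maximum of 117495 and an LKO minimum of 110964. The albumin gene Alb, one of these markers, made up most of the sum. On HFD it averaged 49709 of a mean sum of 66365 for WT livers, and 74383 of 88392 for LKO livers. Of the 7 markers, 2 were fitted higher and 5 lower in LKO on HFD, with a median log2 fold change of -0.14. The separation of the sum on HFD is therefore not shared by most of the markers. The LKO chow libraries fell into pairs on the second principal component, which held 13.8% of the variance: libraries 3 and 4 scored 38.1 and 34.7, libraries 1 and 2 scored -10.7 and -11.1. Results on chow are therefore also given without each pair where that moved them. Dividing cells carry much of the RNA of several repair genes, so lists of proliferation genes and of other liver cell types were read beside them. The summed CPM of 27 proliferation genes overlapped between genotypes on both diets (73.9 to 109 in WT and 88.9 to 111 in LKO on chow, 89 to 197 and 99.9 to 150 on HFD), with 1 of 26 tested genes higher in LKO on chow, 2 on HFD and none lower. The sum of 9 T and NK cell markers ran from 5.94 to 9.63 CPM over all libraries, with 1 marker, Prf1, higher in LKO on both diets. B and plasma cell markers summed to 46.7 to 268 in WT and 50.1 to 91.2 CPM in LKO on chow, where 2 of 8 were lower in LKO. None of 10 macrophage, 6 endothelial, 6 stellate or 5 bile duct markers was called between genotypes on either diet, and of the 7 hepatocyte markers 2 were lower in LKO on chow, and 1 was higher and 1 lower on HFD. Beside these lists, 24.7% of all genes tested were called between genotypes on chow and 17.9% on HFD. No listed gene in the table was at 0 in all libraries of a group, which was fixed beforehand, since every gene of the table exceeds 0 in every library. Listed markers missing from the table (Tf, Klrb1c and Cftr) are not covered. The part of cell composition in the repair gene values was not tested.

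In WT liver on chow the repair genes spanned a wide range of levels. Expressed as CPM per kilobase of exon, the lowest was Rad51ap1, an accessory factor of homologous recombination, at 0.0474 ± 0.0353, and the highest was Parp12 at 11.9 ± 0.77 (SD, n = 4 each). The median over the 62 genes was 1.26 CPM per kilobase. Next after Parp12 came Parp3, which acts at strand breaks, at 10.5 ± 0.95, the Ku80 gene Xrcc5 at 9.28 ± 1.63 and the break sensor Parp1 at 8.76 ± 0.53, and the library ranges of neighbours in this order overlapped. Medians by role were 3.14 for base excision and single-strand break repair, 2.54 for end joining, 1.78 for mismatch repair, 1.34 for nucleotide excision repair, 0.682 for the Fanconi pathway, 0.578 for the kinases and 0.536 for homologous recombination. The 8 lowest came from 6 of the roles: after Rad51ap1 they were Fancd2 at 0.0684, Ercc6l at 0.0769, Neil3 at 0.0932, Rad54l at 0.105, Msh4 at 0.118, Chek1 at 0.13 and Fanci at 0.134 CPM per kilobase. Other recombination and Fanconi genes stood well above the median, with Rad51d at 3.7 and Fancf at 3.59 CPM per kilobase.

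**Figure D1:**
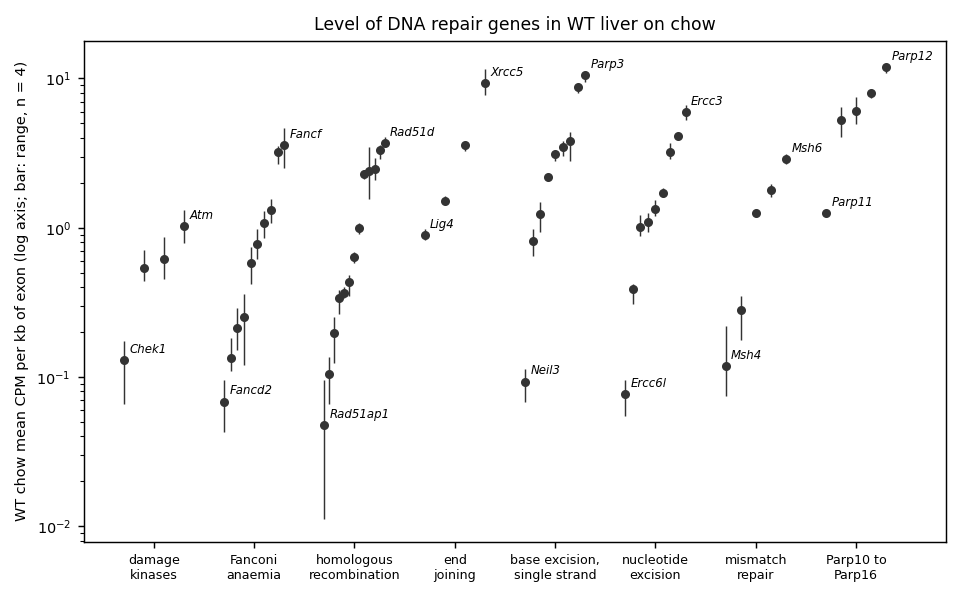
Mean level of 59 of the 62 genes in WT liver on chow, as CPM per kilobase of exon on a log axis, by role; bars span the 4 libraries, and the lowest and highest gene drawn in each role are named. The Parp10 to Parp16 set, base excision and end joining hold the highest genes (Parp12 at 11.9, Parp3 at 10.5, Xrcc5 at 9.28), and homologous recombination reaches lowest (Rad51ap1 at 0.0474).

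The first comparison asked how hepatocyte Arglu1 loss bears on these genes on chow. Loss of Arglu1 came with rises in some repair genes and falls in others, with no shift of the set as a whole: 11 were higher and 7 lower in LKO (edgeR quasi-likelihood test, with the Benjamini-Hochberg adjusted p over all genes tested, written here as FDR, below 0.05). That is 18 of 62, or 29%, beside 24.7% of all genes tested, of which 12.9% were higher and 11.8% lower. Their median log2 fold change was 0.02, as it was over all genes tested (0.02). Without Parp10 to Parp16, 14 of 57 (24.6%) were called, 7 higher and 7 lower. The largest rises were those of Msh5 (5.32-fold), Rad51b (2.8-fold), Parp11 (2.2-fold) and Parp16 (2.16-fold), whereas the 7 that fell did so by between 1.24-fold (Xrcc5) and 1.54-fold (Brca1). In bulk liver RNA, fewer cells of a type and less RNA per cell cannot be told apart.

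On HFD, 12 of 62 genes (19.4%) were called between the genotypes, 10 higher and 2 lower in LKO, beside 17.9% of all genes tested (10.3% higher and 7.57% lower). The median log2 fold change was -0.05, and -0.01 over all genes tested. Without Parp10 to Parp16, 8 of 57 (14%) were called, 6 higher and 2 lower. The largest rises were again those of Msh5 (4.96-fold), Parp11 (2.36-fold) and Parp16 (1.7-fold).

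The same 10 genes were called in the same direction on both diets, or 16.1% of the 62, beside 12.3% of all genes tested. They made up 55.6% of the repair genes called on chow and 83.3% of those called on HFD, beside 49.6% and 68.5% over all genes called. Of the 10, 9 were higher in LKO (Ercc5, Msh5, Neil2, Parp3, Parp10, Parp11, Parp14, Parp16 and Rad51d) and 1 was lower (Atr). Across the 62 genes, 48 had fold changes of the same sign on both diets, and the log2 fold changes correlated with a Pearson r of 0.791 (Spearman 0.636), beside 0.773 over all genes tested; these are correlations across genes, which are not independent replicates. A further 8 genes were called on chow and not on HFD, and 2 on HFD and not on chow. The genotype by diet interaction was called for none of the 62 (0.0208% of all genes tested), and 6 had an unadjusted p under 0.05 (8.75% of all genes tested, edgeR). DESeq2 and limma voom also called 0, so with all libraries no difference between diets is shown for any of them. Without LKO chow libraries 1 and 2, edgeR called the interaction for some, among them Parp12 (0.63, FDR = 0.00999) and Xrcc3 (-0.76, FDR = 0.0236). The plot of fold changes by role sets both diets side by side.

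**Figure D2:**
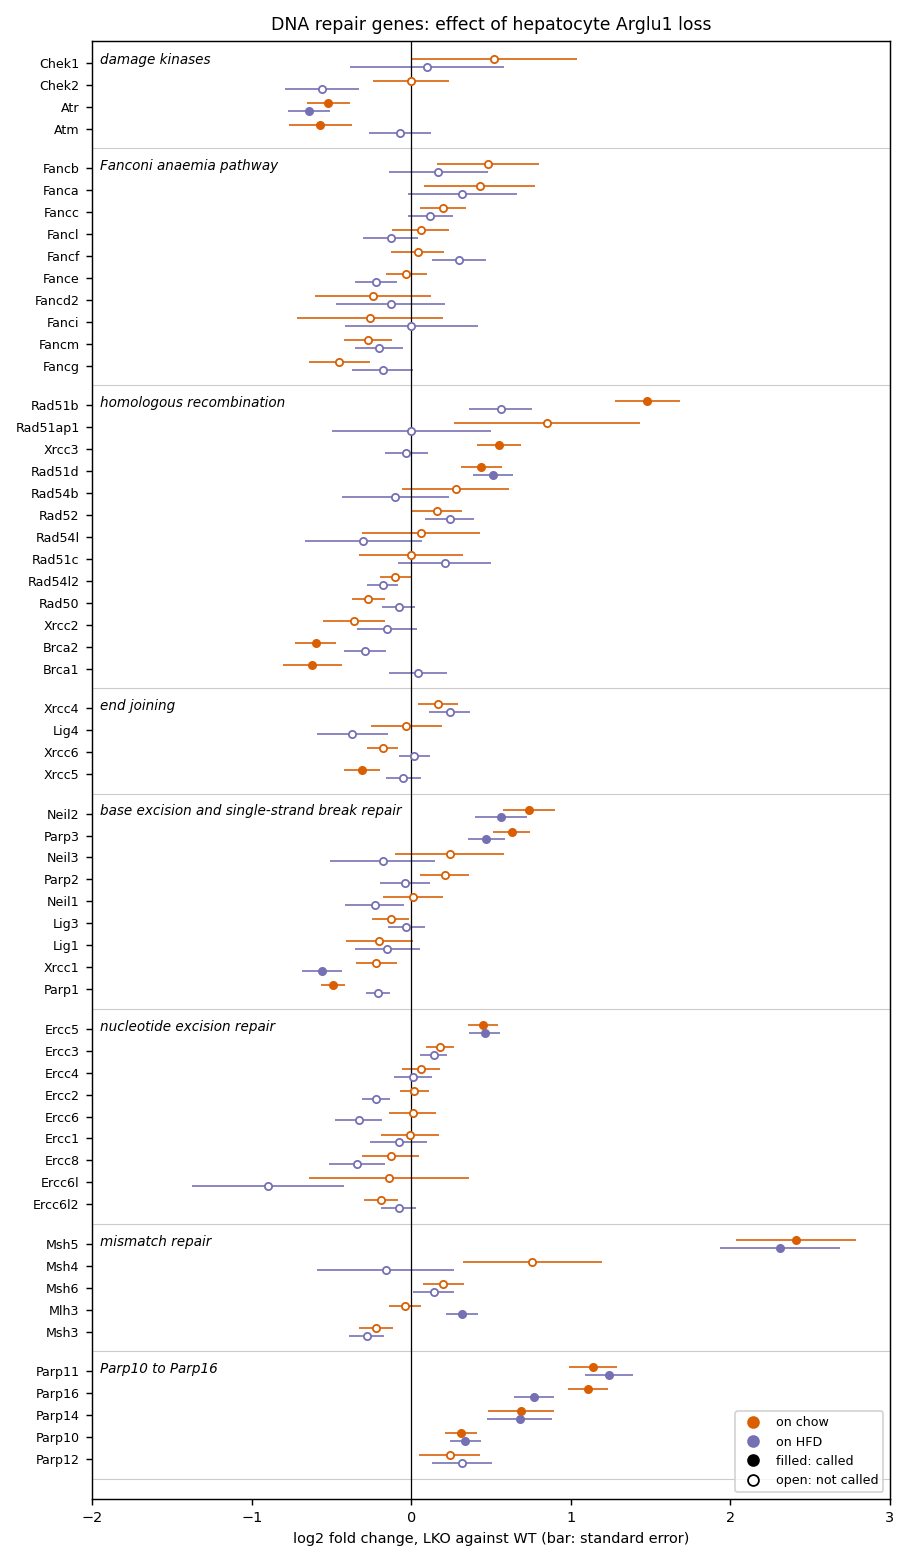
Log2 fold change of 59 of the 62 genes, LKO against WT, on chow (orange) and on HFD (purple), with its standard error; filled points are called (FDR below 0.05). Msh5 lies farthest to the right on both diets (2.41 and 2.31), no Fanconi gene is filled, and 4 of the 5 genes from Parp10 to Parp16 are filled on both.

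Among the damage kinases, Atr, the sensor kinase of stalled replication forks and single-stranded DNA, was lower in LKO on both diets. On chow the 4 WT libraries read 11.1, 12.3, 16.8 and 10.4 CPM and the 4 LKO libraries 9.69, 7.86, 9.11 and 8.67 CPM. On HFD they read 16.6, 15.8, 15.2 and 16.4 CPM in WT and 10.2, 11.3, 10.7 and 8.82 CPM in LKO. No LKO library reached the lowest WT library on the same diet, something seen for 21.4% of all genes tested on chow and 27.8% on HFD, in either direction. Atr had a log2 fold change of -0.52 on chow (SE 0.13, FDR = 0.00906) and -0.64 on HFD (SE 0.13, FDR = 0.00228, edgeR). A fit of the chow groups alone gave Atr an FDR of 0.0568 (range over its alternatives 0.00167 to 0.0568). Atr (chromosome 9, 95857597 to 95951781) shares 5.78% of its exon bases with a gene on the opposite strand, and whether counting used strand is not given in the sources used here.

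Atm, the kinase that responds to double-strand breaks, read 8.59, 12.1, 13.6 and 8.16 CPM in WT and 9.52, 7.79, 6.47 and 4.68 CPM in LKO on chow. The groups overlapped, and LKO replicate 1 lay above 2 of the WT libraries. Its log2 fold change of -0.57 (SE 0.2, FDR = 0.0418) lost its call in 12 of 26 alternatives, among them leaving out WT chow replicate 3 (-0.43, FDR = 0.148) or LKO chow replicate 4 (-0.42, FDR = 0.125), and was -0.29 without LKO chow libraries 3 and 4 (FDR = 0.346). On HFD the Atm means were 10.2 ± 1.71 in WT and 9.69 ± 0.34 CPM in LKO (± SD over 4 libraries; log2 fold change -0.07, FDR = 0.856). The checkpoint kinase genes were not called by edgeR on either diet. Chek1 stood at 0.6 ± 0.23 and 0.88 ± 0.44 CPM on chow, levels at which the 95% interval of its log2 fold change ran from -0.49 to 1.54. Chek2 stood at 1.86 CPM in both genotypes on chow, and at 2.66 ± 0.56 in WT and 1.81 ± 0.25 CPM in LKO on HFD (log2 fold change -0.56, FDR = 0.109), where limma voom called it lower (-0.56, FDR = 0.0229).

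None of the 10 Fanconi pathway genes was called in either genotype comparison (edgeR; 1 had an unadjusted p under 0.05 on chow and 0 on HFD, beside 36% and 30.7% of all genes tested, and DESeq2 and limma voom also called 0). The gene with the lowest p was Fancg, a subunit of the core complex that attaches ubiquitin to the FANCD2 and FANCI pair. It read 4.6, 4.95, 3.23 and 3.48 CPM in WT and 2.73, 3.01, 3.28 and 2.89 CPM in LKO on chow (log2 fold change -0.45, SE 0.19, FDR = 0.0984). A single LKO library thus reached into the WT range. Fancm, the translocase that anchors the core complex to DNA, had log2 fold changes of -0.27 on chow and -0.20 on HFD (FDR = 0.21 and 0.41), and was called on chow in 1 alternative, without WT chow replicate 1 (-0.40, FDR = 0.0444). Fancf, the highest Fanconi gene per kilobase, had means of 6.06 ± 1.7 and 6.25 ± 0.39 CPM on chow. Fancd2 itself, at 0.543 ± 0.2 in WT and 0.461 ± 0.05 CPM in LKO on chow, was among the sparsest genes measured. Over the 10 genes the median log2 fold change was 0.01 on chow and -0.07 on HFD.

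Of 14 homologous recombination genes, 3 rose and 2 fell on chow (35.7%) and 1 rose on HFD (7.14%). Over all genes tested, 24.7% were called on chow and 17.9% on HFD. The 3 risen genes, Rad51b, Rad51d and Xrcc3, encode subunits of the small complexes that help prepare single-stranded DNA for exchange with the sister copy. The 2 fallen genes are Brca1 and Brca2, which direct the trimming of broken ends and the step of strand exchange.

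Rad51b (chromosome 12, 79297282 to 79814690, plus strand) rose most. On chow it read 8.29, 13.1, 5.92 and 8.69 CPM in WT and 21.5, 29.2, 27.5 and 23.1 CPM in LKO. The lowest LKO library, at 21.5 CPM, stood well above the highest WT library, at 13.1 CPM. This gave a log2 fold change of 1.48 (SE 0.2, FDR = 5.26e-05, edgeR). On HFD the WT libraries read 17.4, 16.8, 15.7 and 10.9 CPM and the LKO libraries 17.6, 23.6, 25.6 and 22.8 CPM. All 4 LKO libraries remained above the WT ones, by a narrow margin, with a log2 fold change of 0.56 (SE 0.2, FDR = 0.0559) that missed the threshold. It passed in 7 alternatives, among them DESeq2 (0.56, FDR = 0.0361), the replicate number as a block (0.57, FDR = 0.0455) and leaving out LKO HFD replicate 1 (0.66, FDR = 0.0403), WT chow replicate 2 (0.56, FDR = 0.023) or WT chow replicate 3 (0.56, FDR = 0.0304). The interaction was -0.92 (SE 0.28) with an unadjusted p of 0.0044 and an FDR of 0.402 in edgeR, so the smaller difference on HFD did not pass the test over all genes.

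Rad51d, whose product shares a complex with that of Rad51b, rose on both diets. Its libraries read 13.7, 15, 13 and 13.2 CPM in WT and 20.4, 18, 19.8 and 16 CPM in LKO on chow, and 17, 10.7, 12.3 and 11.1 against 17.6, 17.7, 18.1 and 19.1 CPM on HFD. The groups did not overlap on either diet, although WT HFD replicate 1 came close to the LKO range. The log2 fold changes were 0.44 on chow (SE 0.13, FDR = 0.0175) and 0.51 on HFD (SE 0.13, FDR = 0.0088, edgeR). Without LKO chow replicate 3 the chow value was 0.4 with an FDR of 0.0507, and without LKO chow libraries 1 and 2 it was 0.38 (FDR = 0.0651).

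Xrcc3, which works in a complex with RAD51C, read 6.75, 8.09, 5.76 and 6.62 CPM in WT and 8.63, 8.64, 11.9 and 10.9 CPM in LKO on chow. The higher readings came from LKO libraries 3 and 4. Its log2 fold change was 0.55 (SE 0.14, FDR = 0.0074) with all libraries and 0.34 without that pair (FDR = 0.141, edgeR). On HFD Xrcc3 stood at 8.97 ± 1.27 in WT and 8.79 ± 0.29 CPM in LKO (log2 fold change -0.03, interaction -0.58 with an FDR of 0.445).

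Brca2 fell on chow, from 7.93, 8.76, 8.61 and 9.32 CPM in the WT libraries to 6.04, 4.86, 5.06 and 6.88 CPM in the LKO libraries. No LKO library reached the WT range. The log2 fold change was -0.60 (SE 0.13, FDR = 0.00265, edgeR), a call kept in every alternative run. On HFD the libraries read 7.64, 8.61, 8.35 and 9.35 CPM in WT and 6.54, 7.72, 7.41 and 6.02 CPM in LKO, with 1 LKO library inside the WT range (log2 fold change -0.29, FDR = 0.13), and limma voom called it lower there (-0.30, FDR = 0.0357). Brca1 read 3.07, 2.93, 3.28 and 2.27 CPM in WT and 1.89, 1.97, 1.69 and 1.94 CPM in LKO on chow. The groups did not overlap, at these low levels, with a log2 fold change of -0.62 (SE 0.19, FDR = 0.0213). The call was lost without WT chow replicate 3 (-0.56, FDR = 0.0616), without LKO chow replicate 3 (-0.58, FDR = 0.0628) and in 3 other alternatives. Among those 3 was leaving out LKO chow libraries 3 and 4 (-0.58, FDR = 0.117). On HFD Brca1 means were 2.65 ± 0.25 in WT and 2.73 ± 0.6 CPM in LKO (log2 fold change 0.04, interaction 0.66 with an FDR of 0.497). The remaining 9 recombination genes, among them Rad50, Rad51c, Rad52, Rad54l and Xrcc2, were not called on either diet. Rad50, of the complex that trims broken ends, was called lower on chow by DESeq2 (-0.29, FDR = 0.0414) and without LKO chow replicate 4 (-0.32, FDR = 0.0481), and Rad52 higher without LKO chow libraries 1 and 2 (0.39, FDR = 0.0469).

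**Figure D3:**
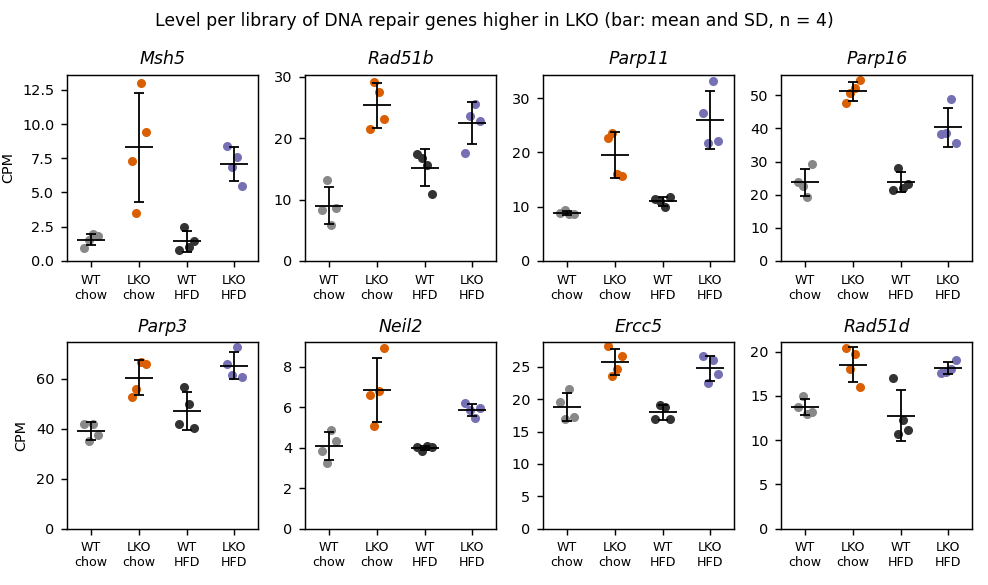
CPM in each library of 8 genes that were higher in LKO on at least one diet; points are libraries, and bars the mean and SD of 4. For each of the 8 all LKO points lie above all WT points on the same diet, and for Rad51b the gap is wide on chow and narrow on HFD. Not every risen gene is drawn, and of those left out Parp10 overlapped on HFD and Parp14 on chow. Groups without overlap were seen for 16 of the 62 genes on chow and 19 on HFD, in either direction. The shares of all genes tested were 21.4% and 27.8%.

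End joining held 4 measured genes, of which 1 was called on chow (25%) and 0 on HFD, beside 24.7% and 17.9% of all genes tested. The gene called was Xrcc5, which encodes the larger subunit of the Ku ring that binds broken ends. It read 21.6, 19.7, 29.3 and 24.3 CPM in WT and 16.4, 19.2, 20.1 and 20.8 CPM in LKO on chow. The groups overlapped, and the WT mean was raised by replicate 3. The log2 fold change of -0.31 (SE 0.11, FDR = 0.0487) lost its call in 19 of 26 alternatives. It was -0.20 without WT chow replicate 3 (FDR = 0.187) and -0.25 without LKO chow replicate 1 (FDR = 0.125). Without LKO chow libraries 1 and 2 it was -0.22 (FDR = 0.202). Xrcc6, the other Ku subunit, had log2 fold changes of -0.18 on chow and 0.02 on HFD (FDR = 0.196 and 0.92). Xrcc4 and Lig4, which together seal the joined ends, were not called. Xrcc4 stood at 6.32 ± 0.35 CPM in WT on both diets, against 7.11 ± 1.21 in LKO on chow and 7.48 ± 0.45 CPM in LKO on HFD (FDR = 0.374 and 0.205), and Lig4 at between 4.25 and 5.49 CPM in the 4 groups.

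Base excision and single-strand break repair had 9 genes, of which 2 rose and 1 fell on each diet. That is 33.3% on each, beside 24.7% of all genes tested on chow and 17.9% on HFD. Parp3, a poly(ADP-ribose) polymerase family member active at strand breaks, rose on both. On chow it read 41.9, 34.9, 42 and 37.4 CPM in WT and 52.9, 55.8, 66.6 and 66.1 CPM in LKO, and on HFD 42, 56.6, 49.9 and 40.2 CPM in WT and 66, 61.5, 72.7 and 60.8 CPM in LKO. All LKO libraries exceeded all WT libraries on both diets, with log2 fold changes of 0.63 (SE 0.12, FDR = 0.000735) and 0.47 (SE 0.12, FDR = 0.00819, edgeR). Neil2, a glycosylase that removes oxidised bases, rose from 3.84, 3.27, 4.9 and 4.35 CPM to 6.61, 5.09, 6.79 and 8.93 CPM on chow and from 4.03, 3.84, 4.07 and 4.02 CPM to 6.19, 5.85, 5.48 and 5.98 CPM on HFD. Here too the genotypes did not overlap. The log2 fold changes were 0.74 on chow (SE 0.16, FDR = 0.00296) and 0.56 on HFD (SE 0.16, FDR = 0.0238). The chow value was 0.52 without LKO chow libraries 3 and 4 (FDR = 0.0514). On HFD, leaving out any 1 of 6 libraries (WT HFD replicates 2, 3 and 4, LKO HFD replicates 1, 2 and 4) left Neil2 between 0.53 and 0.57 but raised its FDR to between 0.0506 and 0.0626.

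Parp1, the main sensor of single-strand breaks and the source of most poly(ADP-ribose) in damaged cells, fell on chow. It read 47.7, 42.4, 48.9 and 46.4 CPM in WT and 36.2, 33.3, 31 and 31 CPM in LKO, and every LKO library lay below every WT library. Parp1 had a log2 fold change of -0.49 (SE 0.08, FDR = 0.000143), the lowest FDR of the fallen genes. On HFD the values were 43.5, 45.5, 44.9 and 42.9 CPM in WT and 41.1, 36.9, 37.6 and 37.1 CPM in LKO. The groups were again apart, with a log2 fold change of -0.21 (SE 0.08, FDR = 0.0619) that missed the threshold here and passed it in 7 alternatives (FDR from 0.0126 to 0.0456, DESeq2 among them at 0.0274). Xrcc1, the scaffold that PARP1 activity draws to single-strand breaks, fell on HFD, from 12.1, 15.1, 14.3 and 11.9 CPM to 9.05, 8.71, 8.93 and 9.44 CPM (log2 fold change -0.56, SE 0.13, FDR = 0.00477, edgeR). On chow its LKO libraries split, with 9.25 and 9.02 CPM in replicates 1 and 2 and 11.8 and 13.7 CPM in replicates 3 and 4, beside 12.1 to 13.5 CPM in WT (log2 fold change -0.22, FDR = 0.235). Without LKO chow libraries 3 and 4, Xrcc1 was also called on chow (-0.48, FDR = 0.0136). Neil1, Neil3, Parp2, Lig1 and Lig3 were not called. Parp2 stood between 11.4 and 13.2 CPM in the 4 groups, and was called higher on chow without LKO libraries 1 and 2 (0.49, FDR = 0.0106).

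**Figure D4:**
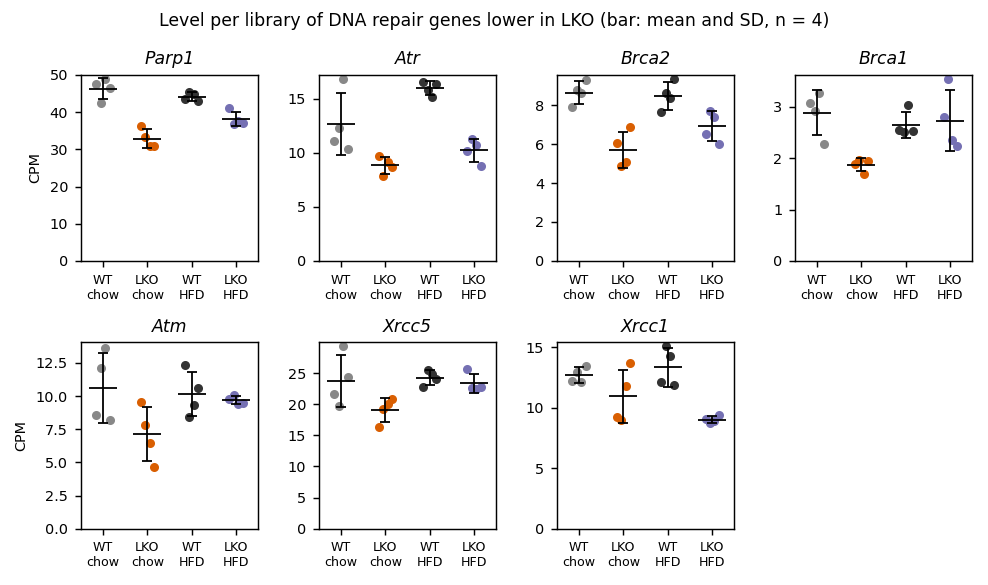
CPM in each library of 7 genes that were lower in LKO on at least one diet; points are libraries, and bars the mean and SD of 4. Parp1 and Atr separate the genotypes on both diets, Parp1 more widely on chow. Brca2 separates them on chow and overlaps on HFD, and the LKO chow points of Xrcc1 lie in pairs.

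In nucleotide excision repair 1 of 9 genes was called on each diet, and it was the same gene. The share of 11.1% stands beside 24.7% of all genes tested on chow and 17.9% on HFD. With limma voom Ercc6, which acts where damage stalls transcription, was also called, lower on HFD (-0.30, FDR = 0.048). Ercc5 encodes the XPG endonuclease, which cuts on the 3′ side of a lesion (chromosome 1, 44147744 to 44181260, plus strand). It read 19.5, 17, 21.5 and 17.2 CPM in WT and 28.2, 23.6, 24.6 and 26.6 CPM in LKO on chow, and 17, 19.1, 18.8 and 17 CPM in WT and 26.6, 22.5, 26.1 and 23.9 CPM in LKO on HFD. The genotypes were apart on both diets, and the fold changes nearly coincided at 0.45 (SE 0.1, FDR = 0.00215) and 0.46 (SE 0.1, FDR = 0.00228, edgeR) on the log2 scale. Ercc3, a helicase of the transcription factor TFIIH and the highest of these genes per kilobase, had values of 0.18 and 0.14 (FDR = 0.144 and 0.293). Ercc2, the other TFIIH helicase, had values of 0.02 and -0.22 (FDR = 0.928 and 0.103), with 42.7% of its exon bases shared with a gene on the opposite strand. Ercc6l, a mitotic helicase caught by the symbol rule, was the lowest of the group, at 0.407 ± 0.09 CPM in WT on chow.

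Mismatch repair held 7 genes, of which 1 rose and 1 fell on chow and 2 rose on HFD. That is 28.6% on each diet, beside 24.7% of all genes tested on chow and 17.9% on HFD. The median log2 fold change of the 7 genes was -0.04 on chow and -0.13 on HFD. The largest genotype difference of any repair gene followed here was that of Msh5, placed in this role by its symbol. Msh5 (chromosome 17, 35028605 to 35046745, minus strand) encodes a MutS homolog that, with MSH4, serves meiotic crossing over rather than mismatch correction. It read 0.972, 1.51, 1.94 and 1.79 CPM in WT and 7.27, 3.51, 13 and 9.4 CPM in LKO on chow. On HFD it read 0.769, 2.51, 1.01 and 1.45 CPM in WT and 8.38, 6.88, 7.62 and 5.48 CPM in LKO. The lowest LKO library was above the highest WT library on each diet, although the LKO chow libraries themselves ran from 3.51 to 13 CPM. Fold changes on the log2 scale were 2.41 on chow (SE 0.38, FDR = 0.000192) and 2.31 on HFD (SE 0.38, FDR = 0.000363, edgeR), and both calls were kept in every alternative run. Its partner Msh4 was not called. Msh4 stood at 0.81 ± 0.47 and 1.38 ± 0.78 CPM on chow and at 1.08 ± 0.11 and 0.959 ± 0.45 CPM on HFD (FDR = 0.231 and 0.844), and was called on chow without LKO libraries 1 and 2 (1.31, FDR = 0.0253).

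Msh6 and Msh3, which recognise mismatches and small loops, were not called by edgeR (log2 fold changes of 0.20 on chow and 0.14 on HFD for Msh6, and of -0.22 and -0.28 for Msh3). Without LKO chow libraries 3 and 4, Msh6 was called higher on chow (0.41, FDR = 0.0378). Msh3 was called lower on HFD by limma voom (-0.32, FDR = 0.0133) and by edgeR without LKO HFD replicate 1 (-0.36, FDR = 0.0402). Mlh3, a MutL homolog that also serves meiotic crossing over, was higher in LKO on HFD, at 16.4, 15.1, 15.4 and 13.7 CPM against 12.8, 10.8, 11.5 and 13.5 CPM in WT. The lowest LKO library was just above the highest WT library. The log2 fold change of 0.32 (SE 0.1, FDR = 0.0362) lost its call with the replicate number as a block (FDR = 0.0678) and without any 1 of WT HFD replicates 2 and 3 and LKO HFD replicates 1, 2 and 3 (0.26 to 0.32, FDR from 0.0747 to 0.112).

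Of the 5 genes from Parp10 to Parp16, 4 rose on both diets and none fell, the highest share of any role. Over all genes tested, 12.9% were higher on chow and 10.3% on HFD, and the set holds only 5 genes. Parp11 and Parp16 rose most. Parp11, an enzyme found at the nuclear envelope (chromosome 6, 127446840 to 127494261, plus strand), read 8.8, 9.3, 8.66 and 8.6 CPM in WT and 22.7, 23.5, 16 and 15.6 CPM in LKO on chow. On HFD it read 11.4, 11.1, 9.84 and 11.7 CPM in WT and 27.2, 21.7, 33.1 and 22 CPM in LKO. LKO libraries lay well above the WT range on both diets, and the chow libraries 1 and 2 were above libraries 3 and 4. The log2 fold changes were 1.14 (SE 0.15, FDR = 3.64e-05) and 1.24 (SE 0.15, FDR = 1.67e-05, edgeR).

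Parp16, a tail-anchored enzyme of the endoplasmic reticulum, read 23.7, 22.7, 19.4 and 29.1 CPM in WT and 47.6, 50.6, 52.2 and 54.5 CPM in LKO on chow, and 21.5, 28.1, 22.1 and 23.3 CPM in WT and 38.3, 38.5, 49 and 35.7 CPM in LKO on HFD. Unlike Parp11, its LKO chow libraries did not fall into pairs. Its log2 fold changes were 1.11 (SE 0.13, FDR = 5.74e-06) and 0.77 (SE 0.13, FDR = 0.000306, edgeR).

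Parp14, a large macrodomain protein of cytokine signalling, read 48.8, 59.9, 49.4 and 37.7 CPM in WT and 84.1, 119, 57.2 and 55.6 CPM in LKO on chow. The groups overlapped, since LKO replicates 3 and 4 fell below the highest WT library. The log2 fold change of 0.69 (SE 0.21, FDR = 0.0213) became 0.42 without LKO chow replicate 2 (FDR = 0.0696), 0.59 without WT chow replicate 4 (FDR = 0.067) and 0.20 without LKO libraries 1 and 2 (FDR = 0.34). On HFD Parp14 read 49, 63.8, 53.5 and 56.3 CPM in WT and 77.7, 83.2, 107 and 88 CPM in LKO, with no overlap and a log2 fold change of 0.68 (SE 0.21, FDR = 0.0302). That call was lost without any 1 of WT HFD replicates 1, 3 and 4 and LKO HFD replicates 3 and 4 (0.58 to 0.68, FDR from 0.059 to 0.0891).

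Parp10 rose least, from 34.4 ± 2.02 to 42.8 ± 3.3 CPM on chow and from 39.1 ± 5.42 to 49.5 ± 4.19 CPM on HFD (SD, n = 4 each; log2 fold changes 0.31 and 0.34, FDR = 0.0282 and 0.0223). Its chow call was lost in 6 alternatives and its HFD call in 5, among them leaving out LKO chow replicate 4 (0.26, FDR = 0.0883) and WT HFD replicate 1 (0.27, FDR = 0.0824). The chow call was also lost without LKO chow libraries 3 and 4 (0.29, FDR = 0.1). Parp12, a zinc-finger antiviral relative, was not called by edgeR with all libraries. Its LKO chow libraries read 61.5, 85, 37.5 and 39.5 CPM, on either side of the 43.4 to 50.3 CPM of the WT libraries. With libraries 3 and 4 left out Parp12 was called higher in LKO on chow (0.63, FDR = 0.00219), and with 1 and 2 left out it was called lower (-0.31, FDR = 0.0296), so its direction on chow depended on the pair. On HFD its log2 fold change was 0.32 (FDR = 0.267), with the LKO libraries between 68.6 and 78.2 CPM and all above the WT libraries. Parp12 was called higher on HFD by limma voom (0.33, FDR = 0.0341), by a fit of the HFD groups alone (0.33, FDR = 0.0135) and without LKO chow libraries 1 and 2 (0.32, FDR = 0.00886) or 3 and 4 (0.32, FDR = 0.0321).

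Parp10, Parp11, Parp12 and Parp14 are known to respond to interferon in many cell types. Of a list of 22 measured interferon-stimulated genes, 21 were higher in LKO on chow and 18 on HFD and none lower (median log2 fold changes 1.80 and 1.54). The shares of all genes tested that were higher were 12.9% on chow and 10.3% on HFD. Its summed level ran on chow from 502 to 613 CPM in WT libraries and from 1163 to 1985 CPM in LKO libraries, and on HFD from 594 to 912 and from 1333 to 1884 CPM. Examples were Oas1a, an RNA-sensing synthetase, at 2.84 and 2.53, and the transcription factor Irf7 at 1.94 and 1.56 (log2 fold changes on chow and HFD). Of the 4 Parp genes, Parp10, Parp11 and Parp14 were called higher beside that list, and the part of interferon signalling in their values was not tested.

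The LKO chow libraries can be read one by one in the plot of library differences. Of the 18 genes called on chow, all 11 risen genes were above and all 7 fallen genes below the WT mean in each of the 4 LKO libraries, on the log2 CPM scale. The median difference of the 11 risen genes was 0.70, 0.52, 0.77 and 0.76 in LKO chow replicates 1 to 4, and that of the 7 fallen genes -0.36, -0.52, -0.67 and -0.54. These genes were chosen by their call in the same libraries. Over all 62 genes the medians were 0.02, -0.19, 0.13 and 0.12. Single genes varied more. Parp14 stood at 0.80 and 1.30 in replicates 1 and 2 and at 0.24 and 0.20 in replicates 3 and 4, and Atm ran from -0.12 in replicate 1 to -1.13 in replicate 4. Without libraries 3 and 4, 17 genes were called, 13 of them among the 18. Without libraries 1 and 2, 19 were called, 15 of them among the 18.

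**Figure D5:**
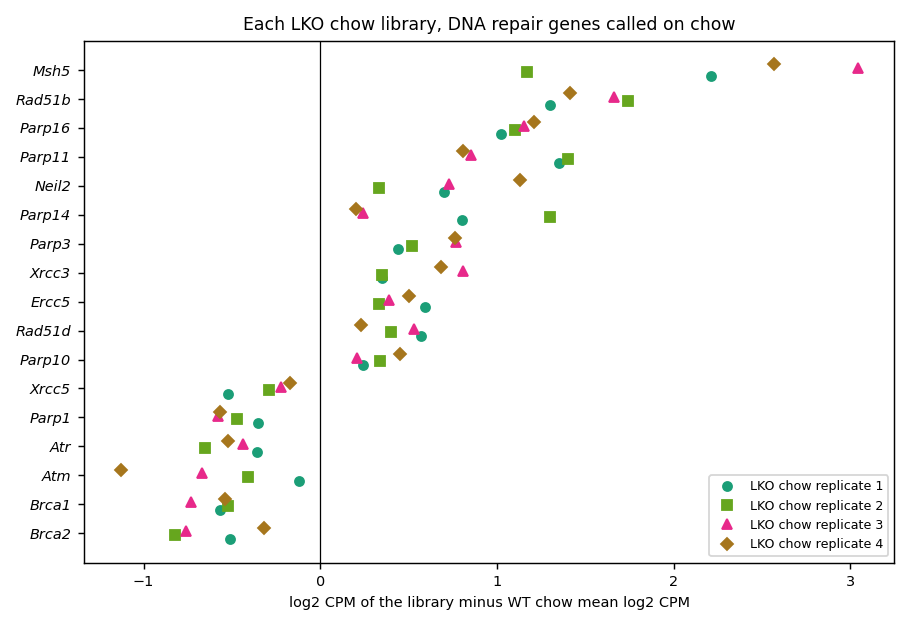
Difference of each LKO chow library from the WT chow mean, in log2 CPM, for 17 of the 18 genes called on chow; each marker is 1 library. All markers lie on the side of 0 of their gene's call, and replicates 3 and 4 lie apart from 1 and 2 for Parp14, Parp11 and Xrcc3.

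Diet was the second question. The HFD changed none of the 62 genes past the threshold in either genotype (edgeR), beside 2.04% of all genes tested in WT and 2.22% in LKO. DESeq2 called 1 in each genotype, and limma voom 0 in WT and 7 in LKO, among them Parp12 (0.67, FDR = 0.0062) and Atm (0.63, FDR = 0.0344), both higher on HFD. At an unadjusted p under 0.05 there were 6 genes in WT and 15 in LKO, beside 15.4% and 17.6% of all genes tested. In WT the lowest p was that of Rad51b, which stood at 9 ± 3 CPM on chow and 15.2 ± 2.95 CPM on HFD (log2 fold change 0.75, SE 0.2, FDR = 0.0679). DESeq2 called it (0.74, FDR = 0.015), as did edgeR without WT chow replicate 2 (0.98, FDR = 0.0101) or without WT HFD replicate 4 (0.88, FDR = 0.0383). Without WT chow replicate 3, Atr was called instead (0.50, FDR = 0.0322). In LKO, edgeR called Parp12 without LKO chow replicate 2 (0.65, FDR = 0.0187). Without LKO chow libraries 1 and 2 there were 11 calls in LKO and 5 in the interaction, among them Parp1, Parp12, Xrcc1 and Xrcc3. These diet comparisons share their LKO or WT libraries with the genotype comparisons, so their values are given only side by side.

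Fewer of the sparse genes were called. Of the 40 repair genes with a mean of at least 5 CPM over all libraries, 16 were called on chow (40%) and 11 on HFD (27.5%). Of the 22 below 5 CPM, 2 (9.09%) and 1 (4.55%) were called. Among all genes tested, at any level, 24.7% were called on chow and 17.9% on HFD. The share of all genes tested at each level was not worked out, so nothing particular to repair genes is read from these counts. At low levels the intervals were wide, as for Rad51ap1, which stood at 0.228 ± 0.17 in WT and 0.439 ± 0.23 CPM in LKO on chow. Below 5 CPM the genes called were Msh5 on both diets and Brca1 on chow.

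Other genes of the same pathways, not taken by the symbol rule, were read from a list, of which the 88 present in the table are counted. Listed genes missing from the table, such as Exo1 and Eme1, are not counted. On chow 12 were higher and 9 lower in LKO (23.9%, beside 24.7% of all genes tested), and on HFD 2 were higher and 7 lower (10.2%, beside 17.9%). By pathway, in the order higher and lower of measured, the chow counts were 2 and 4 of 16 for recombination partners, 4 and 1 of 15 for Fanconi partners and translesion synthesis, 3 and 0 of 18 for base excision and direct reversal, 2 and 1 of 13 for nucleotide excision, 0 and 2 of 8 for end joining, 1 and 1 of 15 for damage signalling, and 0 of 3 for mismatch repair. Those called on both diets with no overlap between libraries were 5 of the 88. The share of all genes tested that meets both conditions was not worked out, so nothing particular to these genes is read from that count. With or without overlap, 12.3% of all genes tested were called in the same direction on both diets. Polk, a translesion polymerase, rose from 6.38 ± 1.02 to 16.8 ± 2.51 CPM on chow and from 8.24 ± 1.24 to 22.1 ± 1.72 CPM on HFD (log2 fold changes 1.39 and 1.42). Among those lower on both diets were Prkdc, the DNA-dependent protein kinase of end joining (-0.41 and -0.53), Trp53bp1, which steers breaks towards end joining (-0.42 and -0.49), and Uimc1, which brings the BRCA1-A complex to breaks (-0.44 and -0.55).

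Targets of p53, the transcription factor activated by DNA damage, were measured beside these. Of 23, 14 were higher and 1 lower on chow and 14 were higher and 0 lower on HFD (65.2% and 60.9%, median log2 fold changes 0.79 and 0.94). The shares of all genes tested that were called were 24.7% on chow and 17.9% on HFD. Cdkn1a, the cell cycle inhibitor p21, rose by 4.11 and 4.22 on the log2 scale, and Mdm2, the ligase that degrades p53, by 0.68 and 0.66. Transcript of Trp53 itself was not called (0.31 and -0.13, FDR = 0.0623 and 0.513). This list and its direction were known before the present description and give no independent support.

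Promoter sequences (RefSeq, GRCm38.p6, 250 bases before to 50 after each start) were found for 48 of the 62 genes. They were searched for short motifs on both strands, with a gene counted once if any of its promoters held a match. The interferon response core, GAAA, any 2 bases and GAAA again, was in 5 of the 48 (10.4%) and in 3.99% of 27025 genes with a promoter (3.95% of the 10924 that were also tested). An E2F site, TTTGGCGC or TTTCCCGC, was in 8 of 48 (16.7%) against 1.8% of those genes and 3.18% of those tested. The CHR element TTTGAA was in 4 of 48 (8.33%) against 20.2%, and 15.1% of those tested, and the single arm of the p53 element in 6 of 48 (12.5%) against 9.55% and 8.49%. The full p53 element without a spacer was in 0 of 48 and in 3 of the 27025. Of the 7 risen genes with a promoter, 1 held the E2F site (Msh5), 1 the interferon core (Parp11), 3 the CHR element (Ercc5, Rad51b and a second promoter of Parp11) and 1 the single p53 arm (Parp3). Of the 6 fallen genes 1 held both the E2F site and the interferon core (Brca2), and 0 held the CHR element or the single p53 arm. The 4 matches to the E2F site or the interferon core in Msh5, Parp11 and Brca2 are printed. They lie in the most risen repair gene, a risen interferon-responsive Parp gene and a fallen recombination gene. The interferon core was also matched in Fancg, Xrcc1 and Chek1, and the E2F site in Fancg, Chek2, Rad51c, Msh3, Xrcc6 and Msh6. None of these other genes was called on chow by edgeR with all libraries. Capitals mark the bases matched to the E2F site or the interferon core, and each sequence runs 5′ to 3′ on the gene's strand. The Msh5 stretch, kept to the bases around the match, is chr17:35046669-35046698 (minus strand), 58 bases before the RefSeq start and between exons of the longer GENCODE model. Parp11 is chr6:127446590-127446839 and Brca2 chr5:150522371-150522620 (both plus strand), the 250 bases before the RefSeq start.
Msh5: tgacggaaaagGCGGGAAAgtgctgcgaat
Parp11: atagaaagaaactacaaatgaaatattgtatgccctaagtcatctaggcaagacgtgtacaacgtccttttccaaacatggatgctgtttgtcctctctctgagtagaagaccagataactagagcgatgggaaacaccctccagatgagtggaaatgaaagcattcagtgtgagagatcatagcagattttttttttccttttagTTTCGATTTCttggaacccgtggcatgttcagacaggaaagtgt
Brca2: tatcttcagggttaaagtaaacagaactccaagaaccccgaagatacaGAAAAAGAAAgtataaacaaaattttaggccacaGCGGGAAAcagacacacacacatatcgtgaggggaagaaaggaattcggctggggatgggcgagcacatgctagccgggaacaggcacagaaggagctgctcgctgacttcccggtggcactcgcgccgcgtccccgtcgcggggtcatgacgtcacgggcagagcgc
A match is a description of letters, and whether a factor binds there was not tested. The interferon core ended 35 bases before the start in Parp11 and 193 bases before it in Brca2, where the E2F site ended 161 bases before the start.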

How the data were processed

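Poly(A)-enriched libraries of liver RNA (NEBNext Ultra II, NovaSeq paired-end, per the labels' protocols) were measured in 4 groups of 4. The authors deposited estimated counts per gene symbol, not normalised; 51.1% were whole within 1e-06. The mm10 build, Bowtie2 and DESeq2 are named in the submitters' processing notes; versions, counting tool, annotation and strand setting were not given in the sources used here. The table's 15119 genes all exceed 0 in every library. A second deposited table held the same counts with its chow columns shifted by a row and was not used.

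Counts were rounded and tested in edgeR 4.0.16 (R 4.3.3): TMM, filterByExpr, robust quasi-likelihood fits with 1 mean per group over 16 libraries, 2-sided tests, Benjamini-Hochberg adjustment over 14434 genes, called below 0.05. SE is the absolute log2 fold change over the root of F, and intervals are 1.96 SE wide on each side. Depth ran from 19142612 to 25120565 counts, and CPM are TMM-scaled. Gene positions and exon lengths are from GENCODE M21 (GRCm38, all 62 symbols matched), promoters from RefSeq. Code was tested on simulated data. Libraries of the same replicate number did not deviate together (5 of 24 correlations over 0.1, median -0.018), so none were paired.

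Members and gene lists were chosen with earlier results of these data known. Named genes were Arglu1, every member called in any comparison, the 2 lowest p and the highest and lowest level per kilobase of each role, and from other lists those called on both diets without overlap or up to 4 by p; further members named were chosen after their values were seen. A few genes enter the counts but are not reported here by name or drawn. Alternatives were DESeq2 1.42.0 and limma voom (3.58.1) with quality weights as tools, upper-quartile scaling and DESeq2 size factors, a mean count of 50 or more and no filter at all, only the groups compared, the replicate block, each library left out, LKO chow libraries 3 and 4 or 1 and 2 left out, and the Parp genes of 2-digit number left out.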

Additional observations from a re-analysis of the deposited data

Results flagged for a closer look

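Among 36 genes taken by the rule for named genes (Arglu1 included) in 4 groups, 144 groups of 4 libraries were screened for a library far from the other 3. The screen flagged 4, a smaller share than the about 1 in 20 that chance alone flags. They are therefore listed as values only. Brca1 read 3.03 CPM in WT HFD replicate 3, beside 2.51 to 2.55 CPM in the others. Ercc3 read 21.1 CPM in LKO chow replicate 2, beside 18.1 to 18.5 CPM. Xrcc5 read 25.6 CPM in LKO HFD replicate 1, beside 22.4 to 22.8 CPM. Arglu1 itself read 45.1 CPM in WT chow replicate 2, beside 39.5 to 40.4 CPM.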

How the results depend on the processing

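Of the calls between genotypes, 9 of 18 on chow (among them Brca2, Ercc5, Msh5, Parp1, Parp3, Parp11, Parp16, Rad51b) and 8 of 12 on HFD (Atr, Ercc5, Msh5, Parp3, Parp11, Parp16, Rad51d, Xrcc1) held in all 26 alternatives run, and 0 called values reversed. Leaving out each library in turn gave 14 to 18 calls on chow, 8 to 13 on HFD, and 0 to 1 for diet in WT and in LKO. A fit of only the compared groups gave 12 on chow. With limma voom 19 genes were called on HFD and 7 for diet in LKO. DESeq2 called 1 for diet in WT and 1 in LKO, and DESeq2 size factors and a mean count of at least 50 each called 1 for diet in LKO. Without LKO chow libraries 1 and 2 there were 11 calls for diet in LKO and 5 for the interaction. The cause was not tested. The numbers do not pair the libraries; with the replicate block 17 genes were called on chow, 12 on HFD and 0 for diet in WT, diet in LKO and the interaction. Genes under 5 CPM had wide intervals, and the part of depth in their few calls was not tested.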
